A study of Mus musculus with 28 samples.

Results

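Heat shock proteins, their J-domain co-chaperones and the cytosolic chaperonin were followed through cultured cells and tumors of the mouse Lewis lung carcinoma line 3LL. The members were all rows whose gene symbol began with Hsp and a number or the letter a, b, d, e or h, with Dnaja, Dnajb or Dnajc and a number, or with Cct and a number. This gave 73 rows among the 18509 rows that carried a symbol, in a table of 43143 rows. They comprised 7 subunits of the CCT chaperonin, 3 HSP90 rows, 10 HSP70 rows, 3 HSP110 rows, the HSP60 and HSP10 pair, 5 small heat shock proteins, 4 DNAJA, 9 DNAJB and 26 DNAJC rows, and 4 others. Subfamilies were assigned by symbol alone, so Hspb11 counts as a small heat shock protein by its symbol only.

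RNA sequencing covered 7 groups of 4 libraries. Cultured cells were wild-type (WT), KEAP1-KO, in which CRISPR-Cas9 had disrupted exon 2 of Keap1, and DKO, in which exon 5 of Nrf2 had also been disrupted. WT was the parental line, KEAP1-KO lines were each grown from a single colony, and DKO was made from KEAP1-KO cells, also from a single colony. Clone and genotype therefore cannot be told apart. A deletion named below stands for the comparison of these lines. KEAP1 is the adaptor that marks the transcription factor NRF2 for degradation, so KEAP1-KO cells carry active NRF2 and DKO cells carry neither protein. Tumors came from cells injected under the skin of both flanks of male albino C57BL/6 mice that were 6 weeks old, and were taken 10 days later. Experiment A placed WT cells on the left and KEAP1-KO cells on the right, and Experiment B placed KEAP1-KO cells on the left and DKO cells on the right, so genotype and flank cannot be told apart within an experiment. WT and DKO tumors were never grown in the same experiment. Both tumors of a mouse share a host, and the labels do not say which tumors came from the same mouse. The main tests did not pair tumors.

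Chaperones bind unfolded proteins and help them fold, assemble or be destroyed. HSP70 proteins cycle on and off their clients with ATP, J-domain proteins of the DNAJ families bring clients to them and start the cycle, and HSP110 proteins recharge them with ATP. HSP90 finishes kinases and receptors, the CCT ring folds actin and tubulin, HSP60 with its HSP10 lid folds proteins inside mitochondria, and small heat shock proteins hold unfolded clients. The cytosolic stress genes are switched on by heat shock factor 1 (HSF1), which binds heat shock elements, and chaperones of the endoplasmic reticulum (ER) are switched on by ATF6 and XBP1 when that compartment is overloaded.

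Promoter sequence showed where these control elements lie in the members that the results turn on. The windows ran from 250 bases before to 50 bases after each RefSeq start site (assembly GRCm38.p6), and 58 of the 73 members had at least 1. A heat shock element was searched on both strands as alternating GAA and TTC units with any 2 bases between neighbours, in a 2-unit form (GAANNTTC or TTCNNGAA) and in a 3-unit form that contains the 2-unit form. The 3-unit form lay in windows of 4 members, Dnajb6, Hspd1, Hspe1 and Hsph1. It was held by 7.79% of the members' windows and by 0.603% of all windows. The 2-unit form was held by 24.7% and 15.1%, respectively. The ER stress element, CCAAT and CCACG with any 9 bases between them, was found in 3 members, Hspa5, Dnajc3 and Hsp90b1, which was 3.9% of the members' windows compared with 0.119% of all windows. The antioxidant response element that NRF2 binds, searched as TGACNNNGC or TGAGNNNGC, was in 40.3% of the members' windows and in 27.8% of all windows. These matches describe letters in a window and do not show that a factor binds there. The Hspa1a stretch lies at chr17:34972238-34972275 and the Hspa1b stretch at chr17:34959320-34959357, both on the minus strand. They are identical in letters, as these genes are near-identical copies, and reads that fit both cannot be assigned with certainty. Hspd1 (minus strand) and Hspe1 (plus strand) share the bases chr1:55088053-55088082 between them and read them in opposite directions. The Hspb1 stretch is chr5:135887787-135887844 (plus strand) and the Dnajb4 stretch chr3:152193846-152193874 (minus strand). Capitals mark the heat shock units.
Hspa1a: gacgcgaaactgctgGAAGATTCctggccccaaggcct
Hspa1b: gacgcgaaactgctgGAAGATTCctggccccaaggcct
Hspb1: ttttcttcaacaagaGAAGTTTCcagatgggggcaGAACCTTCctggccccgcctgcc
Hspd1: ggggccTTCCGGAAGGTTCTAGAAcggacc
Hspe1: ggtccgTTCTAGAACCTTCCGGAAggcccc
Dnajb4: ttcgttcgttcgctgTTCTAGAAagtaca

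The ER chaperone stretches are shown because these genes hold this element and are all named below. They are Hspa5 at chr2:34772010-34772058 (plus strand), Dnajc3 at chr14:118937812-118937860 (plus strand) and Hsp90b1 at chr10:86705623-86705671 (minus strand). Capitals mark the ER stress element.
Hspa5: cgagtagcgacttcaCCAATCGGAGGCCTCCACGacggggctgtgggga
Dnajc3: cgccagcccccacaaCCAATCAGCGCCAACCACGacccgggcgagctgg
Hsp90b1: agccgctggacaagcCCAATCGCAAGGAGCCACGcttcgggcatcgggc

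What a member's row measured was not uniform. Of the 73 rows, 19 carried a gene identifier and 54 a transcript identifier, and by a GENCODE annotation 26 of these transcripts were retained introns, 12 were targets of nonsense-mediated decay, 9 were processed transcripts and 6 were protein coding. For 53 of the 54, the gene has a consensus coding transcript, and none of those transcripts was listed. A symbol below therefore names the row that carried it, and levels were not compared between members. Values are given as deposited, log2(normalized count + 4), on which 2.0 means no reads, and every difference is a difference of these values, which understates the change of rarely read rows. A member was called when limma gave a Benjamini-Hochberg adjusted p under 0.05 over all rows tested, and "rose" and "fell" are used only for called members. The filter on low values left 63 members in the tumors, 57 in the cells and 65 over all libraries. Rarely read rows are called less often. Shares of all rows are therefore also given for fits of rows with a mean of at least 25 normalized counts (the filter on the mean). Members were not matched to rows of like abundance. The 8 members tested nowhere were Dnajc1, Dnajc6, Dnajc18, Dnajc28, Hspa12a, Hspb7 and the pseudogenes Hsp25-ps1 and Hspd1-ps4.

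Libraries held 4222370 to 7524293 reads, recovered from the whole-read steps of the deposited values, with a median of 5619517. Nqo1, an NRF2 target, followed the labels: its mean ± SD was 9.01 ± 0.11 in WT, 12.45 ± 0.11 in KEAP1-KO and 6.77 ± 0.09 in DKO cells (n = 4 each), and 6.85 ± 0.19, 12.41 ± 0.11, 12.23 ± 0.22 and 5.93 ± 0.46 in WT, KEAP1-KO (A), KEAP1-KO (B) and DKO tumors. Keap1 differed by -1.86 between KEAP1-KO and WT cells, whereas the row for Nfe2l2, which encodes NRF2, was a processed transcript that did not mark the deletion. Keratin 8 was read in every group of the line, and Epcam and the lung alveolar markers Sftpc, Sftpb and Nkx2-1 were not analysed here. Host cells differed between the tumors. The summed normalized counts of 7 leukocyte markers were 3147.5 to 3948.4 in WT tumors, 767.8 to 859.5 in KEAP1-KO tumors of Experiment A, 1214.3 to 1568.7 in those of Experiment B and 2286.2 to 3531.6 in DKO tumors. In bulk tumors, fewer cells of a type and less RNA per cell cannot be told apart.

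In KEAP1-KO tumors (Experiment A) members moved in both directions. Compared with WT tumors, the inducible HSP70 genes Hspa1a and Hspa1b, the small heat shock protein Hspb1 and the J-proteins Dnajb11, Dnajc3 and Dnaja3 fell in KEAP1-KO tumors. Rises were seen in 3 of 7 CCT subunits and in Hspd1, Hspa9, Hspb8, Dnajb4 and Hsph1. Of 63 members tested, 8 (12.7%) rose compared with 5.61% of all rows, and 6 (9.52%) fell compared with 7.49% of all rows. With the filter on the mean, 12.2% of all rows rose and 13.3% fell. The members' median difference was 0.053 and that of all rows was -0.027.

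Hspa1a and Hspa1b, the HSP70 genes that cells switch on under stress, showed the largest falls. Hspa1a read 6.50, 5.55, 6.45 and 7.34 in the WT tumors and 5.46, 4.56, 4.54 and 5.09 in the KEAP1-KO tumors. Mean normalized counts were 92.5 and 27.3, and the difference was -1.54 (SE 0.38, adjusted p = 0.0127). The groups did not overlap, and the lowest WT tumor lay only just above the highest KEAP1-KO tumor. Hspa1b read 7.19, 5.40, 6.49 and 7.46 in WT and 5.18, 4.49, 4.91 and 5.21 in KEAP1-KO tumors, a difference of -1.69 (SE 0.41, adjusted p = 0.0109). WT tumor 2 was the lowest of its group for both copies. Hspb1, the small heat shock protein HSP25 that binds unfolded clients, read 4.91, 4.12, 4.75 and 5.71 in WT and 3.08, 3.96, 3.87 and 3.30 in KEAP1-KO tumors. Its difference of -1.32 (SE 0.39, adjusted p = 0.0328) lost its call in 5 of the 8 fits that left out a library, with adjusted p up to 0.0995, and with the replicate number as a block (adjusted p = 0.108). All 7 leukocyte markers and all 7 macrophage markers also fell in these tumors. So did 3 of 4 neutrophil markers, 1 of 2 tested T and NK cell markers and 1 of 6 fibroblast markers. Of the epithelial carcinoma markers 2 of 3 tested fell. The part of host cells in the fall of these stress genes was not tested.

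Other members rose in KEAP1-KO tumors. Hspb8, a small heat shock protein that works with the co-chaperone BAG3, read 8.68, 8.67, 8.93 and 9.13 in WT and 9.82, 9.88, 9.53 and 9.9988 in KEAP1-KO tumors, a rise of 0.95 (SE 0.12, adjusted p = 6.59e-05). Dnajb4, a cytosolic J-protein, read 8.30, 8.57, 8.40 and 8.61 in WT and 9.39, 9.21, 9.12 and 9.29 in KEAP1-KO tumors, a rise of 0.78 (SE 0.08, adjusted p = 9.36e-06). Every KEAP1-KO tumor was above every WT tumor for both rows. Within the CCT ring, 3 of 7 subunits rose and none fell, and the range over the 7 was 0.07 to 0.33. Cct5 read 12.09, 12.08, 12.14 and 12.20 in WT and 12.50, 12.43, 12.47 and 12.45 in KEAP1-KO tumors, a rise of 0.33 (SE 0.05, adjusted p = 0.000241). Cct7 rose by 0.33 and Cct4 by 0.29. In the mitochondrion, the HSP60 Hspd1 read 11.94, 11.94, 11.99 and 11.91 in WT and 12.26, 12.18, 12.50 and 12.17 in KEAP1-KO tumors, a rise of 0.33 (SE 0.09, adjusted p = 0.0174). The mitochondrial HSP70 Hspa9 rose by 0.30 (SE 0.06, adjusted p = 0.0016). Hspe1, the HSP10 lid, differed by 0.34 but was not called (adjusted p = 0.108). Hsph1, an HSP110 that recharges HSP70, rose by 0.26 with overlapping groups (adjusted p = 0.0368), and 6 of 8 fits that left out a library lost the call, with adjusted p up to 0.124. Without a trend in the variance, 5 of these 8 rises lost their calls, those of Cct4 (adjusted p = 0.0937), Cct7 (0.0699), Hspd1 (0.0872), Hspa9 (0.053) and Hsph1 (0.157).

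Dnajb11, Dnajc3 and Dnaja3 were the J-proteins that fell. Dnajb11, a partner of the ER chaperone BiP, read 9.07, 9.16, 9.08 and 8.96 in WT and 8.65, 8.78, 8.75 and 8.71 in KEAP1-KO tumors, a fall with a difference of -0.34 (SE 0.06, adjusted p = 0.0013). Dnajc3, an ER J-protein that also inhibits the stress kinase PERK, differed by -0.25 (SE 0.05, adjusted p = 0.00386, and 0.088 without a trend). Dnaja3, the mitochondrial J-protein, differed by -0.33 (SE 0.07, adjusted p = 0.00618). None of the 3 HSP90 rows was called, and their differences ran from -0.18 to 0.17. The lowest, Hsp90b1 (adjusted p = 0.0711), was called under quantile normalization (-0.31, adjusted p = 0.012), with the filter on the mean (0.045), with rows summed (0.0487) and without KEAP1-KO tumor 3 (0.00794). Hspa5, the ER HSP70 BiP, differed by -0.17 (adjusted p = 0.13) and was called under quantile normalization (-0.27, adjusted p = 0.00999). By row type, gene rows gave 1 rise and 5 falls among 13 members, and transcript rows 7 rises and 1 fall among 50. Over all rows, 8.75% of gene rows rose and 13.6% fell, compared with 4.77% and 5.85% of transcript rows. The part of row type in these directions was not tested. When all listed rows of a gene were summed, 26 members were called, 16 higher and 10 lower, with 10.4% of all genes higher and 15.4% lower. Hspd1 (adjusted p = 0.103) and Hsph1 (0.075) lost their calls under quantile normalization of the values, where the members' calls were 7 higher and 9 lower, with 6.63% of all rows higher and 6.68% lower.

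**Figure D1:**
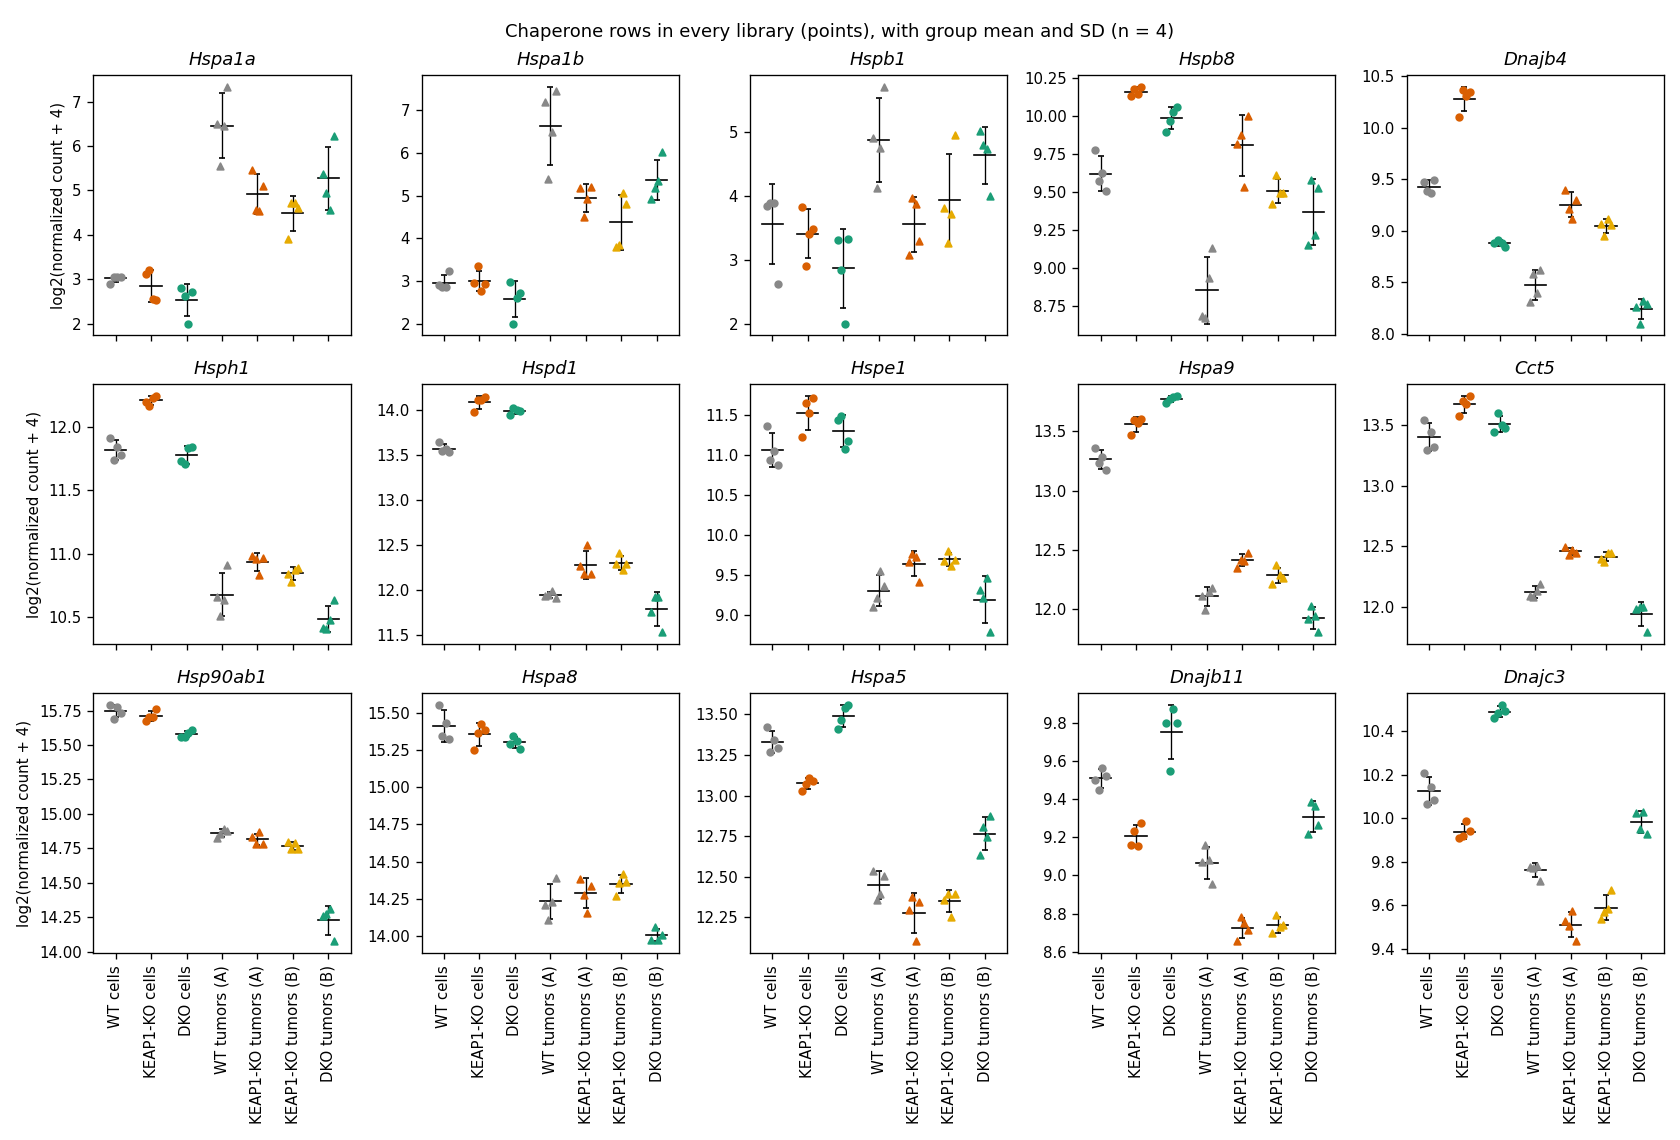
Each panel plots 1 chaperone row, with log2(normalized count + 4) on the vertical axis and the 7 groups on the horizontal axis. Points are libraries (circles cells, triangles tumors), bars the mean and lines the SD of 4 libraries. Hspa1a lies between 2.0 and 3.21 in every library of cells and between 3.90 and 7.34 in tumors. Dnajb4 is highest in KEAP1-KO among the cells and, separately, in KEAP1-KO among the tumors.

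In DKO compared with KEAP1-KO tumors (Experiment B), where NRF2 was deleted on top of KEAP1, more members fell than rose. Falls included 6 of 7 CCT subunits, Hspd1, Hspe1, Hspa9, Hsp90ab1 and Hspa8, and the rises were those of Hspa5, Dnajb11, Dnajc3 and Dnajb5. Of 63 members, 16 (25.4%) fell compared with 4.64% of all rows, and 4 (6.35%) rose compared with 4.22%. With the filter on the mean, 10.7% of all rows fell and 8.37% rose. The members' median difference was -0.192, with 0 for all rows. Cct8 was the subunit that was not called (0.05, adjusted p = 0.945), and its difference lay below 0 in 4 of the 8 fits that left out a library, at -0.11 in the lowest.

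Cct3 moved most in the ring. It read 11.77, 11.94, 11.80 and 11.86 in KEAP1-KO and 11.14, 11.15, 11.29 and 10.92 in DKO tumors, a difference of -0.72 (SE 0.07, adjusted p = 3.54e-06). Cct5 read 12.40, 12.37, 12.44 and 12.45 in KEAP1-KO and 11.98, 12.0044, 12.0013 and 11.79 in DKO tumors, a difference of -0.47 (SE 0.05, adjusted p = 1.63e-05). The falls of Cct2, Cct4, Cct6a and Cct7 lay between -0.46 and -0.33, and Cct6a lost its call without a trend (adjusted p = 0.0992). DKO tumor 4 was the lowest library for each of these 6 subunits. Both rows of the mitochondrial chaperonin fell as well. Hspd1 read 12.29, 12.41, 12.22 and 12.29 in KEAP1-KO and 11.75, 11.92, 11.93 and 11.52 in DKO tumors, a difference of -0.52 (SE 0.09, adjusted p = 0.001). Hspe1 read 9.68, 9.80, 9.61 and 9.69, and then 9.31, 9.22, 9.46 and 8.78, a difference of -0.50 (SE 0.13, adjusted p = 0.022). The Hspe1 call was lost in 2 of the 8 fits that left out a library, with adjusted p up to 0.0663, and without a trend (0.0623). Hspa9 fell, with a difference of -0.36 (SE 0.06, adjusted p = 0.000587).

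Hsp90ab1 and Hspa8, abundant cytosolic chaperones, also fell. Hsp90ab1, the constitutive HSP90, read 14.80, 14.74, 14.79 and 14.75 in KEAP1-KO and 14.26, 14.27, 14.31 and 14.07 in DKO tumors, a difference of -0.54 (SE 0.05, adjusted p = 2.52e-06). Mean normalized counts of that row were 27901 and 19223, and no DKO tumor reached a KEAP1-KO tumor. The inducible Hsp90aa1 read 6.93, 6.84, 6.59 and 6.59, and then 4.81, 6.42, 5.94 and 6.69, with overlapping groups and no call (difference -0.77, adjusted p = 0.117), and the difference was -0.39 (adjusted p = 0.227) without DKO tumor 1. It was called without DKO tumor 4 (-1.01, adjusted p = 0.0322) and with all rows of the gene summed (-1.07, adjusted p = 0.00883). Hspa8, the constitutive HSP70, read 14.27, 14.36, 14.41 and 14.36 in KEAP1-KO and 13.97, 14.06, 13.97 and 14.01 in DKO tumors, a difference of -0.35 (SE 0.06, adjusted p = 0.00159). Hsph1 fell, with a difference of -0.36 (adjusted p = 0.00642). Hspa8 and Hsph1 lost their calls under quantile normalization (adjusted p = 0.0859 and 0.109), and Hsph1 also without a trend (0.0597). The cytosolic J-protein Dnaja1 fell, with a difference of -0.26 (adjusted p = 0.0263, and 0.15 without a trend). Dnajb4 read 9.06, 8.95, 9.11 and 9.06 in KEAP1-KO and 8.25, 8.10, 8.31 and 8.28 in DKO tumors, a difference of -0.81 (SE 0.08, adjusted p = 1.25e-05). The ER membrane J-protein Dnajb14 differed by -0.53 (SE 0.08, adjusted p = 0.00027). Hspa13, a divergent microsomal HSP70, differed by -0.96 (SE 0.24, adjusted p = 0.0192), from a mean of 11.3 to 3.82 normalized counts, and 4 of 8 fits that left out a library lost this call, with adjusted p up to 0.0673.

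The members that rose in DKO tumors were Hspa5, Dnajb11, Dnajc3 and Dnajb5. Hspa5, which encodes BiP, read 12.36, 12.40, 12.25 and 12.39 in KEAP1-KO and 12.64, 12.81, 12.74 and 12.88 in DKO tumors, a rise of 0.42 (SE 0.07, adjusted p = 0.000849). Dnajb11 read 8.70, 8.80, 8.73 and 8.74, and then 9.22, 9.38, 9.36 and 9.26, a rise of 0.57 (SE 0.06, adjusted p = 2.03e-05). Dnajc3 read 9.54, 9.57, 9.58 and 9.67, and then 10.02, 9.95, 10.03 and 9.93, a rise of 0.39 (SE 0.05, adjusted p = 0.000129). In all 3 rows every DKO tumor was above every KEAP1-KO tumor. Hsp90b1, the ER member of the HSP90 family, differed by -0.01 and was not called (0.19, adjusted p = 0.168, under quantile normalization). The fourth rise was that of Dnajb5, a cytosolic J-protein, by 1.65 (SE 0.40, adjusted p = 0.0144) from a mean of 7.27 to 26.5 normalized counts. For Hspa1a and Hspa1b the differences were 0.78 and 0.99, and neither was called (adjusted p = 0.263 and 0.17), although Hspa1b was called with the replicate number as a block (adjusted p = 0.0436). By row type, 13 gene rows gave 2 rises and no fall, with 7.48% and 6.21% of all gene rows, and 50 transcript rows gave 2 rises and 16 falls, with 3.35% and 4.21% of all transcript rows. All 7 leukocyte markers rose, as did 3 of 6 fibroblast markers, whose sums were 2412.0 to 3216.4 in KEAP1-KO and 10359.2 to 14252.1 in DKO tumors. In addition 3 of 7 macrophage markers rose, with sums of 3985.1 to 4532.8 and 4794.9 to 6264.1, and 2 of 5 tested skeletal muscle markers rose, with sums of 73.5 to 276.9 and 82.7 to 1453.0. Epithelial carcinoma markers, of which 1 of 3 tested rose and 1 fell, summed to 2119.8 to 2651.9 in KEAP1-KO and 1496.6 to 2140.8 in DKO tumors. In culture they summed to 3242.6 to 3535.0 in KEAP1-KO and 2626.4 to 2696.6 in DKO cells, and both markers tested fell. The sums therefore also differed between the lines in culture. The part of host cells and of row type in the members' changes was not tested.

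**Figure D2:**
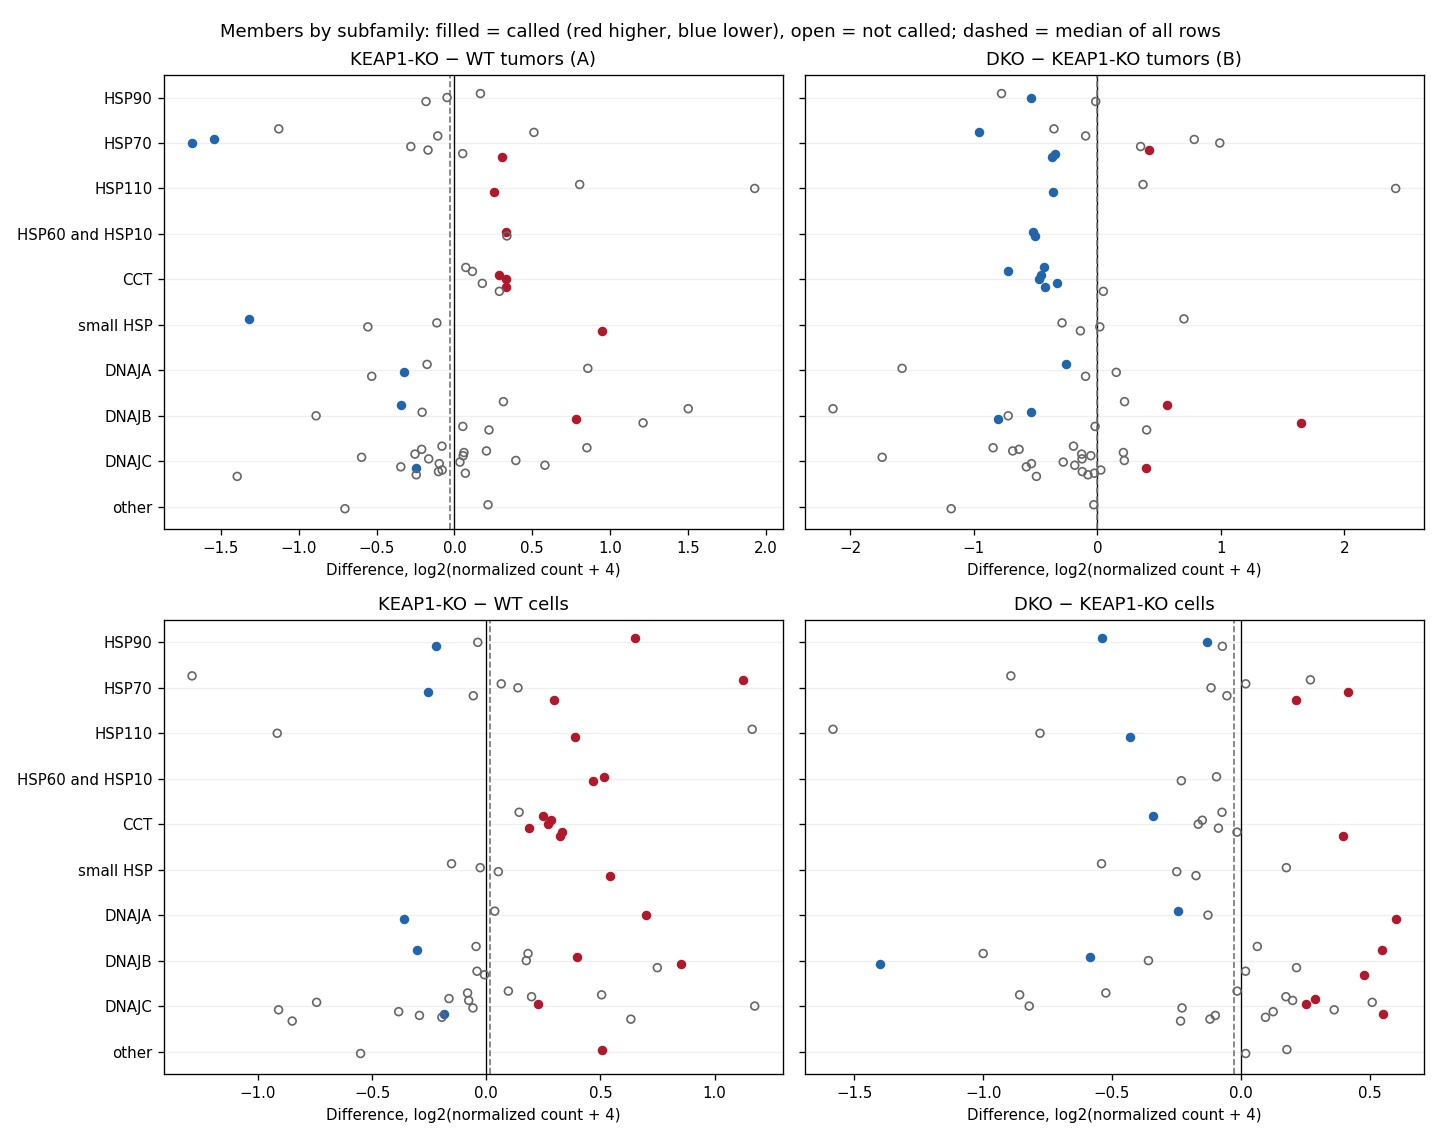
Each panel is 1 genotype comparison; the horizontal axis is the difference in log2(normalized count + 4) and rows are the subfamilies. Each point is a tested member, filled red where it rose, filled blue where it fell and open where it was not called, and the dashed line is the median of all rows. In DKO compared with KEAP1-KO tumors 6 of 7 CCT subunits lie to the left as blue points, and in KEAP1-KO compared with WT cells 6 of 7 lie to the right as red points.

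In culture, more members rose than fell in KEAP1-KO compared with WT cells. Leukocyte marker sums were near 0 there, with medians of 17.8 to 40.9 normalized counts per group. Macrophage marker sums were 8.0 to 34.5 in WT, 106.8 to 116.9 in KEAP1-KO and 46.2 to 55.5 in DKO cells. With KEAP1 deletion the 1 macrophage marker tested rose, and 2 of 2 tested epithelial carcinoma markers fell. Of 57 members tested, 18 (31.6%) rose in KEAP1-KO compared with WT cells, with 8.13% of all rows, and 5 (8.77%) fell, with 7.33% of all rows. With the filter on the mean, 15.5% of all rows rose and 16% fell. The median difference was 0.097, compared with 0.018 for all rows. By row type, 10 gene rows gave 1 rise and 2 falls, with 12.9% and 11.9% of all gene rows, and 47 transcript rows gave 17 rises and 3 falls, with 6.88% and 6.13% of all transcript rows.

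Of the CCT subunits 6 of 7 rose, by 0.19 to 0.33, and the seventh, Cct2, differed by 0.14 (adjusted p = 0.066). Cct2 was called under quantile normalization (0.20, adjusted p = 7.35e-05), with the filter on the mean (0.0428) and with rows summed (0.0382), and Cct8 lost its call in 4 of 8 fits without a library, with adjusted p up to 0.0629. Among the called subunits Cct5 alone separated the groups, with 13.54, 13.29, 13.44 and 13.32 in WT and 13.57, 13.69, 13.67 and 13.73 in KEAP1-KO cells (rise 0.27, SE 0.06, adjusted p = 0.00548). In Cct7 the first KEAP1-KO library, at 11.81, lay below the first WT library, at 11.89. Hspd1 read 13.65, 13.54, 13.57 and 13.54 in WT and 13.98, 14.11, 14.11 and 14.15 in KEAP1-KO cells, a rise of 0.51 (SE 0.04, adjusted p = 1.89e-06). Hspa9 rose by 0.30 (SE 0.04, adjusted p = 0.000322). Hspe1 rose by 0.47 (adjusted p = 0.0288) with overlapping groups, and 6 of 8 fits without a library lost its call, with adjusted p up to 0.0843. Hsp90aa1, the stress-inducible HSP90, read 8.32, 8.02, 7.75 and 7.97 in WT and 8.70, 8.72, 8.65 and 8.60 in KEAP1-KO cells, a rise of 0.65 (SE 0.11, adjusted p = 0.0016). Its constitutive partner Hsp90ab1 differed by -0.04 and was not called, and Hspa8 differed by -0.06 without a call and by -0.32 with one (adjusted p = 3.48e-06) under quantile normalization.

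Dnajb4 showed the smallest p of the members, with 9.47, 9.39, 9.36 and 9.49 in WT and 10.10, 10.36, 10.31 and 10.34 in KEAP1-KO cells. The rise was 0.85 (SE 0.06, adjusted p = 7.89e-07), from a mean of 685 to 1241 normalized counts. Dnaja2, another cytosolic J-protein, rose by 0.70 (SE 0.16, adjusted p = 0.00917) and Hspb8 by 0.54 (SE 0.06, adjusted p = 3.48e-05). Hsph1 read 11.91, 11.74, 11.84 and 11.78, and then 12.19, 12.16, 12.23 and 12.24, a rise of 0.39 (SE 0.05, adjusted p = 6.67e-05). Fewer reads stood behind the rise of Hspa13 by 1.12 (adjusted p = 0.0215), from 3.82 to 12.9 normalized counts, which 3 of 8 fits without a library lost, with adjusted p up to 0.0674. Hspbap1, which binds Hspb1, rose by 0.51, Dnajb14 by 0.40, and the ribosome-bound J-protein Dnajc2 by 0.23. Without a trend in the variance 10 members rose and 1 fell, with 7.09% and 6.17% of all rows, and the calls lost were those of all 6 CCT subunits (adjusted p from 0.0701 to 0.224), Hspe1 (0.0751), Dnajc2 (0.147) and 4 of the falls.

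The members that fell were Hspa5, Hsp90b1, Dnajb11, Dnajc3 and Dnaja3. Hspa5 read 13.42, 13.27, 13.34 and 13.29 in WT and 13.03, 13.07, 13.11 and 13.09 in KEAP1-KO cells, a difference of -0.26 (SE 0.04, adjusted p = 0.000948). Hsp90b1 differed by -0.22, Dnajc3 by -0.18 and Dnajb11 by -0.30. The first 4, all ER chaperones, each held the KEAP1-KO libraries below all WT libraries, and all 4 lost their calls without a trend, Hspa5 with an adjusted p of 0.0701, Hsp90b1 of 0.114, Dnajb11 of 0.0617 and Dnajc3 of 0.166. Dnaja3 fell, with a difference of -0.36 (SE 0.05, adjusted p = 0.000313).

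DKO cells compared with KEAP1-KO cells gave 9 rises among 57 members (15.8%; all rows 3.98%) and 7 falls (12.3%; all rows 4.85%). With the filter on the mean, 9.77% of all rows rose and 9.84% fell. By row type, 10 gene rows gave 4 rises and no fall, with 7.35% and 7.92% of all gene rows, and 47 transcript rows 5 rises and 7 falls, with 3.09% and 4.05%. The ER chaperones Hspa5, Dnajc3, Dnajb11 and Dnajb9 rose. Hspa5 read 13.41, 13.47, 13.54 and 13.56 in DKO cells against 13.03 to 13.11 in KEAP1-KO cells, a rise of 0.42 (SE 0.04, adjusted p = 2.89e-05). Dnajc3 rose by 0.55 (SE 0.04, adjusted p = 2.08e-06), with 10.46, 10.48, 10.52 and 10.49 in DKO and 9.91 to 9.99 in KEAP1-KO cells. Dnajb11 rose by 0.55, and Dnajb9, an ER J-protein that binds the stress sensor IRE1, by 0.48 (SE 0.10, adjusted p = 0.00918). Hsp90b1 differed by -0.07 without a call (adjusted p = 0.358), and was called as lower under quantile normalization (-0.12, adjusted p = 0.00958). Among mitochondrial members Dnaja3 rose by 0.60 (SE 0.05, adjusted p = 6.47e-06) and Hspa9 by 0.21, while Hspd1 differed by -0.09 and was not called, except as lower under quantile normalization (-0.11, adjusted p = 0.00913) and without KEAP1-KO library 1 (-0.13, adjusted p = 0.0292). Cct8 rose by 0.40 and Dnajc2 by 0.25. Dnajc16 rose by 0.29 (adjusted p = 0.0307), and 6 of 8 fits without a library lost that call, with adjusted p up to 0.0896. Without a trend 5 members rose and 5 fell, with 2.65% and 4.0% of all rows, and the calls lost were those of Cct8 (adjusted p = 0.0618), Dnajc16 (0.119), Dnajc2 (0.153), Hspa9 (0.185) and, among the falls, Dnaja1 (0.186) and Hsp90ab1 (0.415).

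Dnajb4 fell further than in tumors. It read 8.88, 8.91, 8.88 and 8.84 in DKO cells, below every WT and KEAP1-KO library, and the difference from KEAP1-KO cells was -1.40 (SE 0.06, adjusted p = 8.9e-09). Hsp90aa1 differed by -0.54, Dnajb14 by -0.59, Hsph1 by -0.43, Cct3 by -0.34 and Dnaja1 by -0.24. Hsp90ab1 fell, with a difference of -0.13 (adjusted p = 0.0123), a call lost with no filter (0.0804) and under median centring (0.244), and this turned to 0.13 without a call under quantile normalization, where the members gave 10 rises and 13 falls, with 4.59% and 5.03% of all rows. Hspa8 differed by -0.05 without a call and by 0.16 with a call (adjusted p = 0.00179) under that normalization. Cct3 was the sole CCT subunit called as lower on the deposited scaling, and Cct5 (-0.23, adjusted p = 1.87e-05) and Cct2 (-0.12, adjusted p = 0.00462) were also called as lower under quantile normalization.

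**Figure D3:**
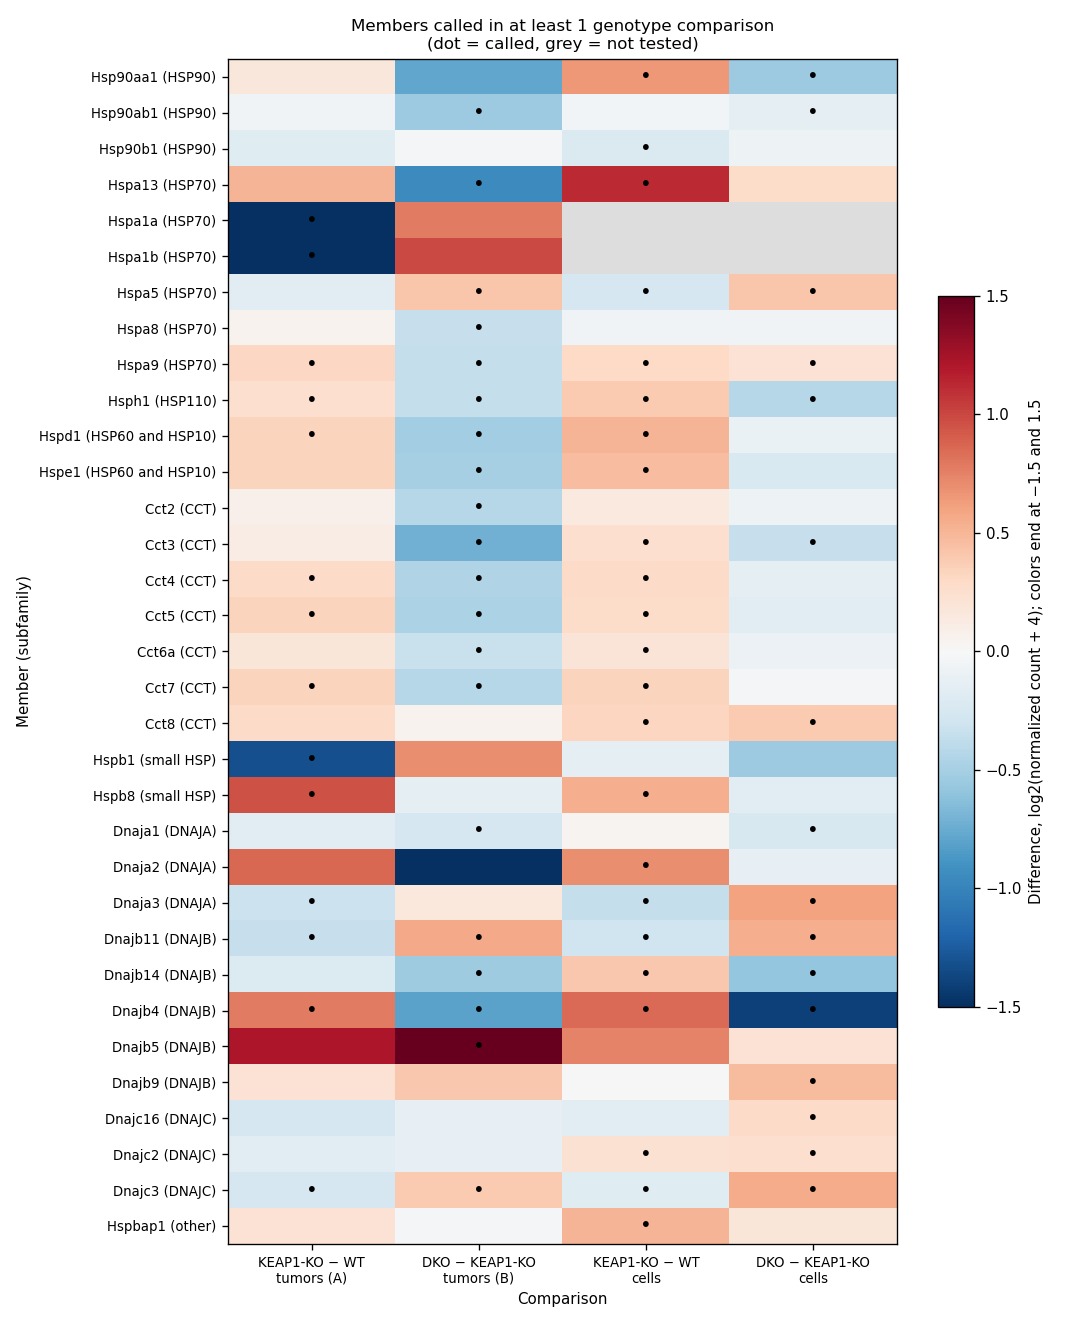
The heat map shows the 33 members called in at least 1 of the 4 comparisons of neighbouring genotypes (columns), ordered by subfamily. Color is the difference in log2(normalized count + 4), red higher and blue lower, with the scale ending at -1.5 and 1.5; a dot marks a call and grey marks a member that was not tested. Dnajb4 is called in all 4 columns, red in both KEAP1-KO columns and blue in both DKO columns, and Dnajb11 and Dnajc3 show the opposite order. Both columns of cells share the KEAP1-KO libraries and are not independent.

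The calls of tumors and cells come from separate libraries, and so do those of Experiments A and B, and members shared by 2 comparisons are counted here among rows tested in both, beside the same share over all rows. Both genotype comparisons in cells share the KEAP1-KO libraries, so their calls in opposite directions are not independent. The 8 members that rose with KEAP1 deletion in tumors, Cct4, Cct5, Cct7, Dnajb4, Hspa9, Hspb8, Hspd1 and Hsph1, also rose in cells, where they were 8 of 18 (44.4%). Over all rows, 46.1% of those that rose in tumors rose in cells, and 35.4% of those that rose in cells rose in tumors. Dnaja3, Dnajb11 and Dnajc3 fell in both, which was 3 of 4 in tumors and 3 of 5 in cells, compared with 48.6% and 37.9% over all rows. With NRF2 deletion, Cct3, Dnaja1, Dnajb14, Dnajb4, Hsp90ab1 and Hsph1 fell in both settings, 6 of 16 (37.5%) in tumors and 6 of 7 (85.7%) in cells, compared with 40.7% and 43.4% over all rows. Dnajb11, Dnajc3 and Hspa5 rose in both, 3 of 4 and 3 of 9, compared with 30.4% and 25.9%. Hspa9 fell in tumors and rose in cells, as did 2.2% of all rows that fell in tumors. Between the tumor experiments, 7 of the 8 members that rose in KEAP1-KO (A) fell in DKO (B), where they were 7 of 16, with Hspb8 left out. Over all rows the shares were 30.1% and 36.4%. Dnajb11 and Dnajc3 fell in KEAP1-KO (A) and rose in DKO (B), 2 of 6 and 2 of 4, compared with 28.9% and 51.3%. With these few members, nothing particular to them is read from the shares. A further 25 members that were tested throughout were called in none of the 4 comparisons, although 6 of them were called at least once with all rows of the gene summed. Hspa4, an HSP110, was then called in all 4, at 0.31 (adjusted p = 0.0352) in KEAP1-KO tumors, -0.35 (0.0243) in DKO tumors, 0.72 (3.5e-05) in KEAP1-KO cells and -0.47 (0.00202) in DKO cells. Among the 25 was Dnajb1, the main cytosolic partner of inducible HSP70. Dnajb1 differed by 0.32 in KEAP1-KO tumors (adjusted p = 0.0693, and 0.0387 with rows summed, 0.0442 with the filter on the mean and 0.0409 after median centring), 0.22 in DKO tumors, -0.04 in KEAP1-KO cells and 0.06 in DKO cells.

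The remaining pairs of groups were compared in the same fits. The KEAP1-KO line, grown on opposite flanks in Experiments A and B, gave 0 calls among 63 members by limma, with 0.152% of all rows higher and 0.0117% lower, and 9 members had an unadjusted p under 0.05. DKO compared with WT tumors, across experiments, gave 5 rises (7.94%; all rows 4.57%) and 8 falls (12.7%; all rows 5.99%). With the filter on the mean, 10.4% of all rows rose and 13.9% fell in these tumors. The members' falls included Hsp90ab1 at -0.63, Cct3 at -0.59 and Dnajb14 at -0.51, and the rises Hspb8 at 0.51, Hspa5 at 0.32 and Dnajb5 at 1.61. With the filter on the mean, 16.6% of all rows rose and 18.2% fell in DKO compared with WT cells. There the members gave 14 rises (24.6%; all rows 8.46%) and 6 falls (10.5%; all rows 9.2%). Among them Hspd1 rose by 0.42, Hspa9 by 0.51 and Cct8 by 0.72, so these rows lay above the WT level in DKO cells. Dnajb4 fell, with a difference of -0.55.

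Whether a deletion moved a member by the same amount in tumors and in cells was tested as the difference of both differences in 1 fit over all 28 libraries. For KEAP1 deletion, none of 65 members was more positive in tumors (all rows 1.5%) and 2 (3.08%) were more negative (all rows 3.88%). Dnajb14 gave -0.61 (SE 0.12, adjusted p = 0.00131), as it rose in KEAP1-KO cells and differed by -0.21 in KEAP1-KO tumors without a call. Hspa1b gave -1.72 (adjusted p = 0.0434), and 14 of the 16 fits without a library lost this call, with adjusted p up to 0.102. Hspa1a and Hspa1b were at or near 0 reads in cells, so only tumors could show a fall. For NRF2 deletion, 9 members (13.8%) were more negative in tumors, compared with 1.55% of all rows, and 1 (1.54%) was more positive, compared with 2.12%. With the filter on the mean, 4.68% of all rows were more negative and 4.14% more positive. All 10 members were among the 52 transcript rows, of which 1.33% over all such rows were more negative and 1.52% more positive, and none of the 13 gene rows was called, with 2.39% and 4.36% of all gene rows. The part of row type was not tested.

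Hspa9 gave the difference with the smallest p, -0.58 (SE 0.07, adjusted p = 8.94e-06). It fell from 12.28 ± 0.07 to 11.92 ± 0.09 in tumors and rose from 13.56 ± 0.06 to 13.78 ± 0.03 in cells (mean ± SD, n = 4). Dnaja3 gave -0.45 (adjusted p = 0.00233), Hsp90ab1 -0.41 (adjusted p = 2.5e-05) and Hspd1 -0.42 (adjusted p = 0.0136). The CCT subunits Cct2, Cct3, Cct5 and Cct7 gave -0.41 to -0.30. Cct7 and the HSP70 Hspa8 (-0.29) lost their calls in 11 and 12 of 16 fits without a library, with adjusted p up to 0.11 and 0.101. Cct7 also lost it with a pseudocount of 0.4 (0.0506) and with only the groups compared (0.0812). Dnajb4 was the exception, at 0.59 (SE 0.10, adjusted p = 0.000793), since it fell more in cells. Under quantile normalization Hspd1 and the 4 CCT subunits were no longer called (adjusted p from 0.139 to 0.726), and the members' calls were 2 more positive and 5 more negative, with 1.97% and 1.18% of all rows. Without a trend those 5 members and Hspa8 were not called either (adjusted p from 0.0924 to 0.268). The part of host cells in these differences was not tested.

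**Figure D4:**
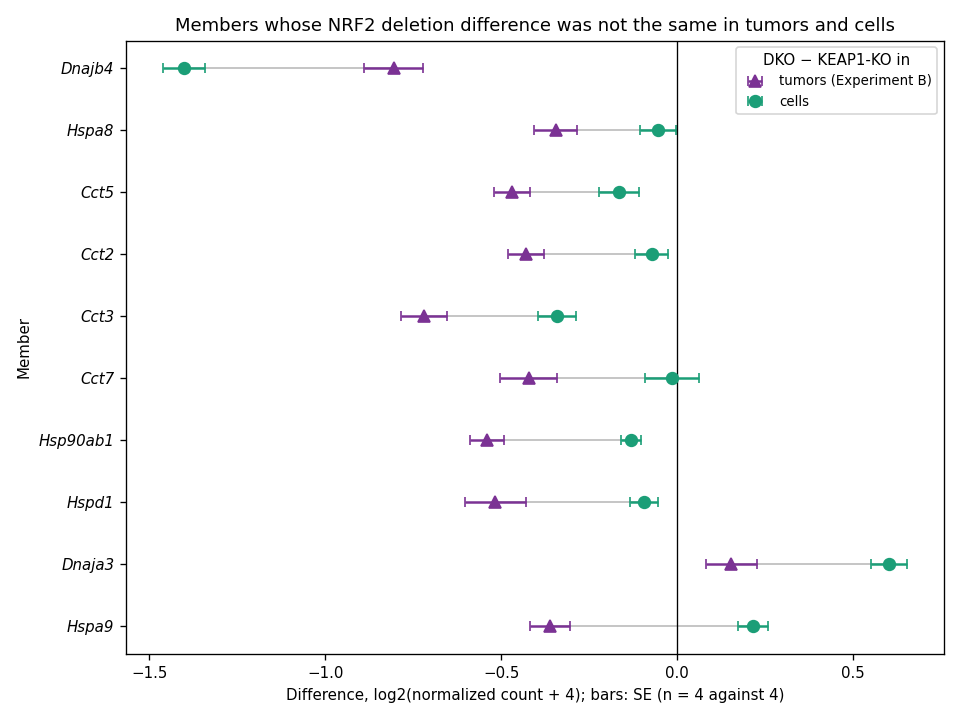
For the 10 members whose NRF2 deletion difference was called as unlike in tumors and cells, the horizontal axis shows DKO minus KEAP1-KO in log2(normalized count + 4), with triangles for tumors, circles for cells and bars for limma's SE. Groups held 4 libraries each, and the SE uses the spread over all 16 tumors or all 12 libraries of cells. Hspa9 lies at -0.36 in tumors and 0.21 in cells, and Dnajb4 is the row whose circle, at -1.40, lies left of its triangle, at -0.81.

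Tumors compared with cells of the same genotype showed the widest differences. Most called members fell in tumors, while on the deposited scaling all rows were called more often higher than lower. In WT, 36 of 65 members (55.4%; all rows 14.1%) were lower and 5 (7.69%; all rows 24.7%) higher. In KEAP1-KO, 37 (56.9%; all rows 15.8%) were lower and 4 (6.15%; all rows 23.9%) higher in Experiment A, and 35 (53.8%; all rows 14.9%) were lower and 6 (9.23%; all rows 23.9%) higher in Experiment B. In DKO, 40 (61.5%; all rows 15.9%) were lower and 5 (7.69%; all rows 27.6%) higher. With the filter on the mean, 30.4% to 32.3% of all rows were lower and 34.4% to 37.4% higher over these comparisons. The members' median difference ran from -0.852 in DKO to -0.654 in KEAP1-KO of Experiment B, and that of all rows from 0.164 to 0.226. That excess of higher rows rests on the scaling. In WT, median centring of the libraries moved the median of all rows from 0.204 to -0.19 and gave 12.7% of all rows higher and 23.3% lower, with 2 members higher and 40 lower. Quantile normalization gave 16.6% of all rows higher and 18.5% lower, with 3 members higher and 35 lower. In the other 3 comparisons the shares of all rows ran from 14.6% to 15.9% higher and 20.6% to 23.7% lower after centring, and from 17.3% to 19.3% higher and 17.2% to 19.8% lower after quantile normalization, and 33 to 45 members were lower. Host cell markers were higher in tumors, with 7 of 7 leukocyte, 7 of 7 macrophage, 6 of 6 endothelial and 6 of 6 fibroblast markers in WT, and how far the members' falls follow the mixture with host cells was not tested.

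A set of 34 members (52.3%) fell in all 4 of these comparisons, compared with 9.61% of all rows, with all 7 CCT subunits, all 3 HSP90 rows and both rows of the mitochondrial chaperonin among them. The share of all rows that fell in all 4 was not counted with the filter on the mean. Hspd1 went from 13.57 ± 0.05 in WT cells to 11.95 ± 0.03 in WT tumors (mean ± SD, n = 4), a difference of -1.63 (SE 0.07, adjusted p = 9.72e-16). In DKO the same row differed by -2.21. Hspe1 differed by -1.75 in WT and -2.10 in DKO. Dnaja1 gave -1.49, and Cct3 -1.33, in WT. Hsp90aa1 fell with differences of -1.78, -1.93 and -2.16 in KEAP1-KO of Experiments A and B and in DKO. Dnajc12, a J-protein for aromatic amino acid hydroxylases, differed by -1.99 in WT, and Dnajc2 by -1.42 and -1.40 in KEAP1-KO of A and B. The lowest row was Dnajc7, an HSP90 and HSP70 co-chaperone, at -4.85 in WT and -5.36 in DKO. It passed the filter only through the cells, so these values are a description. Dnajc7 is nevertheless counted among the lower members of each comparison and among the 34. Its listed transcript had no reads in 14 of 16 tumors, and with all rows of Dnajc7 summed the WT difference was -0.59 (adjusted p = 0.00775). Dnaja2 (-2.54) and Dnajc19 (-2.70) were among the lowest in DKO. Dnaja2 had no reads in DKO tumor 1, and without that tumor its difference was -1.61, above those of Hspd1, Hspe1 and Hsp90aa1 with all tumors.

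Of the members counted as higher in tumors, 3 of 5 in WT, 2 of 4 in KEAP1-KO (A), 4 of 6 in KEAP1-KO (B) and 3 of 5 in DKO had passed the filter only through the tumors, so that they could hardly be lower there. They are Hspa1a, Hspa1b, Dnaja4 and Dnajc8, and their differences are given as a description. Hspa1a and Hspa1b were above the cells in all 4 comparisons. In cells Hspa1a had at most 3.21 in any library, with group means of 1.90 to 4.09 normalized counts. WT tumors lay 3.44 above WT cells for Hspa1a (SE 0.34) and 3.68 for Hspa1b (SE 0.36). In KEAP1-KO the differences were 2.06 and 1.95 in Experiment A and 1.63 and 1.38 in Experiment B, and in DKO they were 2.74 and 2.79. Hspb1 rose by 1.31 in WT and 1.77 in DKO, and was not called in KEAP1-KO. The WT call of Hspb1 was lost in 1 of 8 fits without a library and under both other scalings. Dnaja4, a J-protein, differed by 0.86, 0.85 and 0.83 in WT, KEAP1-KO (B) and DKO. Dnajb6, which suppresses protein aggregates, rose by 0.67, 0.78 and 0.75 in KEAP1-KO (A), KEAP1-KO (B) and DKO. Both were not called under quantile normalization or median centring, and leaving out a library ended each of these calls in 1 to 4 fits, with adjusted p up to 0.112. Dnajc16 rose by 0.38 in WT and turned to -0.01 without a call under median centring. Dnajc8 differed by 0.95 in KEAP1-KO (B), and by 0.67 without a call (adjusted p = 0.0632) under median centring.

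**Figure D5:**
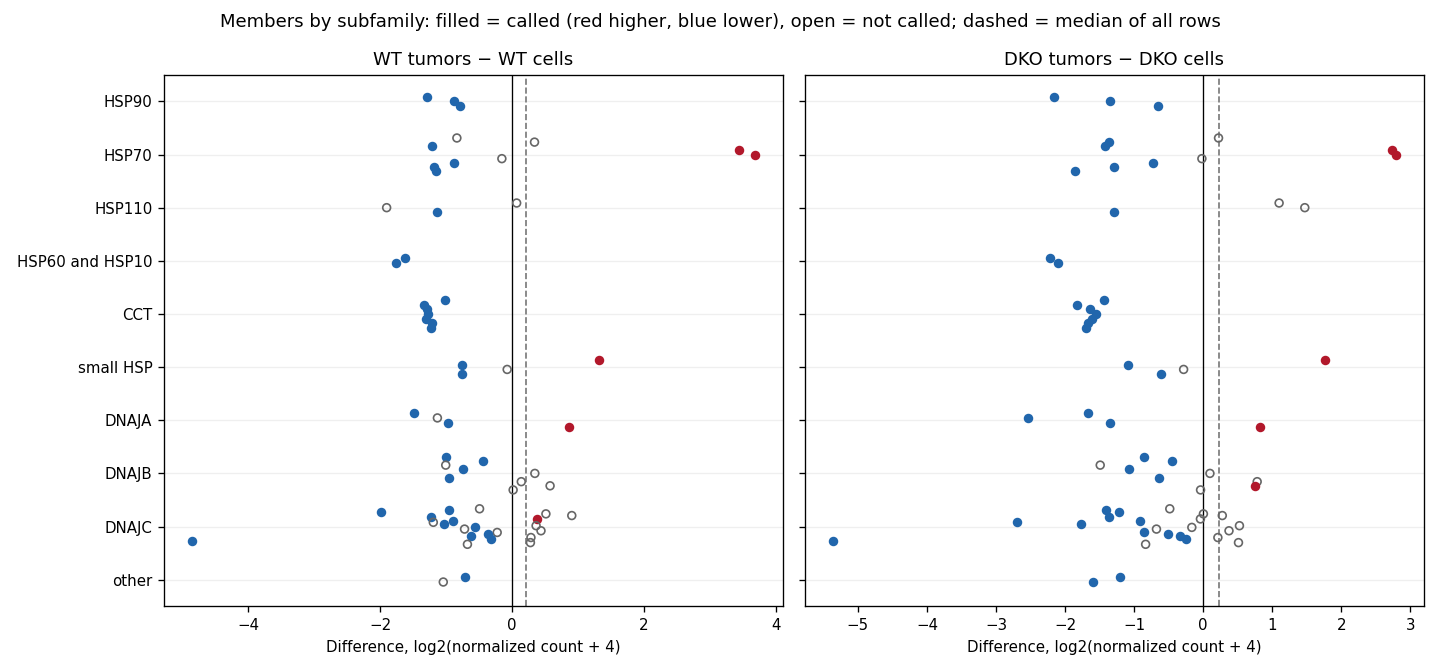
The horizontal axis is the difference between tumors and cells in log2(normalized count + 4) for WT (left) and DKO (right), and rows are the subfamilies. Points are tested members, red where higher in tumors, blue where lower and open where not called, and the dashed line is the median of all rows (0.204 and 0.226). All CCT, HSP90, HSP60 and HSP10 points are blue, and the red HSP70 points far to the right are Hspa1a and Hspa1b.

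Other genes of these pathways were counted from lists. Over all rows 5.61% rose and 7.49% fell in KEAP1-KO tumors, 4.22% and 4.64% in DKO tumors, 8.13% and 7.33% in KEAP1-KO cells and 3.98% and 4.85% in DKO cells. Of 28 tested genes for HSF1 and cytosolic co-chaperones, 5 rose and 2 fell in KEAP1-KO tumors (median difference 0.146), and 10 fell and none rose in DKO tumors (median -0.298). In cells 8 rose and 2 fell with KEAP1 deletion (median 0.273), and 3 rose and 4 fell with NRF2 deletion (median -0.144). Bag2, which regulates HSP70, rose by 0.96 in KEAP1-KO tumors and 1.10 in KEAP1-KO cells and differed by -0.41 in DKO tumors. Bag3 rose by 0.48 and 0.41 with KEAP1 deletion in tumors and cells, and its differences with NRF2 deletion were -0.31 and -0.46. The small heat shock protein Cryab rose by 1.55 in KEAP1-KO tumors and 3.33 in KEAP1-KO cells, and differed by -1.38 in DKO cells. Tcp1, the CCT subunit whose symbol the membership rule does not match, rose by 0.25 and 0.26 in KEAP1-KO tumors and cells and differed by -0.45 in DKO tumors. The HSP90 co-chaperones Ahsa1 (-0.46) and Ptges3 (-0.38) fell in DKO tumors.

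Of 18 tested genes for ER folding, 6 fell and none rose in KEAP1-KO tumors (median -0.186), and 2 rose and none fell in DKO tumors (median 0.0351). In cells 2 rose and 6 fell with KEAP1 deletion (median -0.224), and 6 rose and none fell with NRF2 deletion (median 0.187). Pdia4, a disulfide isomerase, was called in all 4, at -0.49, 0.28, -0.61 and 0.29 in the order KEAP1-KO tumors, DKO tumors, KEAP1-KO cells and DKO cells. The same KEAP1-KO libraries enter both values of cells. Sdf2l1, a BiP cofactor, differed by -0.63 and 0.69 in the tumors and -0.49 in KEAP1-KO cells. Manf, a secreted ER protein, differed by -0.25 in KEAP1-KO tumors, -0.43 in KEAP1-KO cells and 0.46 in DKO cells. Ddit3, a stress transcription factor, rose in both cell comparisons, by 0.80 and 0.89. Of 11 genes for mitochondrial folding, 2 rose and 3 fell in KEAP1-KO tumors and 1 rose and 1 fell in DKO tumors. In cells 2 rose and 2 fell with KEAP1 deletion and 3 rose and 1 fell with NRF2 deletion. The mitochondrial protease Lonp1 differed by -0.29 in KEAP1-KO tumors, -0.43 in KEAP1-KO cells and 0.39 in DKO cells, and the mitochondrial HSP90 Trap1 by -0.25, -0.47 and 0.35.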

How the data were processed

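RNA from 12 libraries of cultured cells and 16 tumors had been depleted of ribosomal RNA, sequenced from directional libraries and quantified with Salmon on a Galaxy server. The authors deposited log2 values, which are log2(normalized count + 4): undoing the transform gave whole reads in 100.0% of the low values checked in each library, to within 0.05 reads, and no raw counts were used. The methods name GENCODE mouse transcripts and a TPM scale, whereas the deposited table mixes gene and transcript rows and its values are not TPM, so the libraries' scaling and the annotation of the rows could not be settled. A protocol in the labels names livers of male mice, while the titles and the paper give cells and tumors, which were followed here.

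Rows that reached 5 normalized counts in 4 or more libraries were tested with limma 3.58.1 (lmFit and eBayes with a trend, R 4.3.3), separately for tumors, cells and all 28 libraries, with Benjamini-Hochberg adjustment over all rows tested. Where nothing says that replicates were separate cultures, p-values measure only the spread between these samples. Members, lists and tests were chosen with earlier results of these data known. Values in every library were given for up to 12 called members per genotype comparison whose groups do not overlap and for well-known members, the 6 highest and lowest called members were named between tumors and cells, and at most 6 genes were named per list. Alternatives covered the pseudocount (0.4), the filter (none, or a mean of 25), quantile normalization, median centring, the groups in the fit, the trend, a replicate block and leaving out each library. Summing all rows of a gene was added after seeing the data. The fits were tested on simulated data. Figures were drawn with matplotlib 3.10.9.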

Additional observations from a re-analysis of the deposited data

Results flagged for a closer look

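Among 31 members with values in every library, 217 sets of 4 replicates were checked for a library far from the other three by Dixon's ratio, which flags about 1 in 20 groups by chance. In 12 sets of 10 members a library stood apart. DKO tumor 4 was low for Cct4, at 10.2395 with the nearest other at 10.5216, and for Cct5, at 11.7938 with the nearest at 11.9847. Cct7 was low in KEAP1-KO cells 1 (11.8091), and Cct8 in WT tumor 2 (8.3145). The Dnaja2 row read 5.8949 in KEAP1-KO tumor 2 of Experiment A and 2.0, no reads, in DKO tumor 1, where the nearest was 5.5264. Dnajb1 was high in WT tumor 4 (9.673), and Hsph1 low in KEAP1-KO tumor 3 of Experiment A (10.8322). Among rows with few reads, Hspa1a was low in WT cells 1 (2.8916) and in KEAP1-KO tumor 1 of Experiment B (3.9043), Hspa1b high in WT cells 4 (3.2272) and Hspb1 low in WT cells 4 (2.6196).

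The effect of a deletion differed between tumors and cells, by limma's test of the difference of both differences, in 12 cases. For KEAP1 deletion these were Dnajb14 (-0.6063) and Hspa1b (-1.723). Hspa1b passed the filter only through the tumors and was at or near 0 reads in cells, so its value is a description, and 14 of 16 fits without a library lost the call. For NRF2 deletion they were Cct2 (-0.3576), Cct3 (-0.3789), Cct5 (-0.304), Cct7 (-0.407), Dnaja3 (-0.4472), Hspd1 (-0.4232), Hspa8 (-0.2913), Hspa9 (-0.5773), Hsp90ab1 (-0.4085) and, in the other direction, Dnajb4 (0.5949).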

How the results depend on the processing

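The number of members called was within 1.5 times of the reported number in the settings not listed here. Without a trend in the variance limma called 8 members in place of 14 in KEAP1-KO compared with WT tumors, 7 in place of 13 in DKO compared with WT tumors, 11 in place of 23 in KEAP1-KO compared with WT cells, 10 in place of 16 in DKO compared with KEAP1-KO cells, 12 in place of 20 in DKO compared with WT cells, and 5 in place of 10 for the NRF2 deletion effect in tumors against cells. Of all rows in those fits, 4.71% rose and 6.68% fell in KEAP1-KO compared with WT tumors. The shares were 3.88% and 4.97% in DKO compared with WT tumors, and 7.44% and 8.33% in DKO compared with WT cells. For the NRF2 deletion effect 2.03% were more positive and 0.913% more negative. With all rows of a gene summed, 26 were called in KEAP1-KO (all genes 10.4% higher and 15.4% lower) and 23 in DKO compared with WT tumors (9.42% and 12%). The 2 calls for the KEAP1 deletion effect in tumors against cells became 1 with a pseudocount of 0.4 or with only the groups compared, and 4 under quantile normalization (all more negative in tumors) or median centring (3 more positive and 1 more negative). Of all rows, 1.18% were more positive and 2.84% more negative with that pseudocount. The shares were 1.81% and 3.31% under quantile normalization, and 3.49% and 2.88% after median centring. Leaving out a library gave 1 to 4. The cause of these changes was not tested. Direction turned in 2 named members that had been called: Hsp90ab1 in DKO compared with KEAP1-KO cells, at 0.1255 (adjusted p = 0.183) under quantile normalization, and Dnajc16 in WT tumors compared with WT cells, at -0.01482 (adjusted p = 0.931) under median centring. Among members that had not been called, Hspa8 turned and became called under quantile normalization in KEAP1-KO compared with WT tumors (from 0.05 to -0.21, adjusted p = 0.026) and in DKO compared with KEAP1-KO cells (from -0.05 to 0.16, adjusted p = 0.00179). Cct2, Hsp90b1 and Hsp90ab1 in tumors under a scaling, and Hsp90b1, Cct8, Dnajb1 and Hspb1 when a library was left out, crossed 0 without a call. DKO compared with WT tumors gave 5 higher and 5 lower under median centring, in place of 5 and 8, with 5.04% and 5.22% of all rows. Hspa13 and Hspb1 rest on few reads, and the part of depth in their lost calls was not tested.

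Deviations of same-numbered replicates from their group means had correlations of -0.0319 to 0.033 over all rows tested. Counting noise of rarely read rows enters these correlations, so they cannot decide whether same-numbered tumors came from the same mouse. With the replicate block, 13, 19, 19, 14 and 17 members were called in KEAP1-KO and DKO tumors, KEAP1-KO and DKO cells, and DKO compared with WT cells, and Hspa13 (adjusted p = 0.0868 in tumors and 0.0551 in cells), Hspe1 in cells (0.0632), Dnajc16 in cells (0.0629) and Hspb1 lost a call. Shares of all rows were not set beside these counts, so the counts describe the members only. With only the groups compared Hsph1 (adjusted p = 0.0978) and Hspa13 (0.0511) in tumors and Dnajc16 in DKO cells (0.0572) lost theirs, with no filter Hspe1 in cells (0.0632), and with a pseudocount of 0.4 Hspb1 in WT tumors compared with cells (0.0525).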

Other observations

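Several members switched between no reads and many reads among replicates of a group. In 20 sets of 4 libraries, 7 members (Dnaja2, Dnajb12, Dnajc7, Dnajc19, Hspa4, Hspa4l and Hspa12b) had no reads in at least 1 library and a value of 5 or more in another. Dnajb12 did so in all 7 groups, with 3 of 4 DKO tumors at no reads and the other at 5.4313, and with 2 of 4 WT tumors at no reads and the others at 5.8776 and 6.7695. In Experiment A, 3 KEAP1-KO tumors had no Dnajc7 reads and the other read 6.9021. All 7 of these are single transcript rows.

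Hspb7, a small heat shock protein of heart and skeletal muscle, was too rare for the test. It read 4.19, 3.19, 4.45 and 2.0 in the DKO tumors and at most 2.65 in any other library. The summed skeletal muscle markers in the same tumors were 1453.0, 609.9, 1176.9 and 82.7 normalized counts, and at most 276.9 in the other tumors. The part of muscle tissue in the Hspb7 reads was not tested.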
